A study of Mus musculus with 14 samples.

Results

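Cells build cholesterol, fatty acids and triglycerides from acetyl-CoA, and the genes of these routes were compared between the luminal subsets of the mouse mammary gland that ICAM-1 separates. The list holds 37 genes taken by symbol. No measured value was used as a filter, but the list was chosen with earlier results of these data known. It holds 17 enzymes of sterol synthesis, 5 SREBP regulators, 6 enzymes of fatty acid synthesis and 9 enzymes of triglyceride synthesis. The SREBP regulators here include Srebf1 and Srebf2, the genes of the SREBP transcription factors themselves. Desaturases and elongases were left out. Of the 37 genes, 36 were measured by a probe set with a single gene symbol, among 22180 such genes in all, and Idi1, whose enzyme forms an isoprenoid building block, was not analysed here. RNA of 7 Lu-pos samples (CD24+ ICAM1+) and 7 Lu-neg samples (CD24+ ICAM1-) was hybridized on Affymetrix whole-transcript arrays, 1 array per sample, each number from 1 to 7 being a distinct pool of at least 12 glands that gave a sample of either subset. The glands came from virgin BALB/cByJ JAX and C57Bl6 females of 4 to 6 months, and which strain made up which pool was not stated. No transgene or deletion is described for these pools. Basal cells are also CD24+ ICAM1+, so that Lu-pos cells were separated from them by the gate alone, and cells were labeled for CD45 and CD31, markers of immune and endothelial cells, before sorting.

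In the mammary gland these routes are best known for milk fat: in lactation the luminal cells make fatty acids, join them to glycerol and secrete the triglyceride as milk fat globules. SREBP2, encoded by Srebf2, mainly drives the sterol genes and SREBP1, encoded by Srebf1, mainly the fatty acid genes. Scap carries both precursors from the endoplasmic reticulum to the Golgi for cleavage, and the Insig proteins hold Scap back when sterols are plentiful. Triglyceride is then assembled on glycerol phosphate in 4 kinds of step: a first acylation (Gpam), a second acylation (the Agpat family), removal of the phosphate (the lipins) and a last acylation (Dgat1 or Dgat2).

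The promoters of 4 members are shown because they carry, in turn, the sequence element that SREBPs are known for (Hmgcs1) and the starts of Gpam, Lpin2 and Me1, whose changes are described below. They are RefSeq sequences of build GRCm38.p6, from 250 bases before to 50 bases after the annotated start, 5′ to 3′ on the strand of the gene. Where RefSeq gave several windows of a gene, the one farthest upstream is printed. Capitals mark matches on either strand to TCACNCCAC (a sterol regulatory element type), CCAAT (the CCAAT box), CACGTG (an E-box) or TGACNNNGC (an antioxidant response element type), searched with N as any base.
Hmgcs1, chr13:119690101-119690400, plus strand: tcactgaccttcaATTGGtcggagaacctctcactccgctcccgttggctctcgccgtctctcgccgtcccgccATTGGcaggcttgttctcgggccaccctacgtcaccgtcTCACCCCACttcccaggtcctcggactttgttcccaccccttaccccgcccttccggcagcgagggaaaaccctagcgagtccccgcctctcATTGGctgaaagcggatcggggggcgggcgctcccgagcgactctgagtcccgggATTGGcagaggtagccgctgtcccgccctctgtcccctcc
Gpam, chr19:55127189-55127488, minus strand: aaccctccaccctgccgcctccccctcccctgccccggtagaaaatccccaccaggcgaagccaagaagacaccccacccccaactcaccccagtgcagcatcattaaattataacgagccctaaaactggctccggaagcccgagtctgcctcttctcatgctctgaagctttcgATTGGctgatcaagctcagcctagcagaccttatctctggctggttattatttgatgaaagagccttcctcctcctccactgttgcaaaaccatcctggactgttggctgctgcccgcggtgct
Lpin2, chr17:71183282-71183581, plus strand: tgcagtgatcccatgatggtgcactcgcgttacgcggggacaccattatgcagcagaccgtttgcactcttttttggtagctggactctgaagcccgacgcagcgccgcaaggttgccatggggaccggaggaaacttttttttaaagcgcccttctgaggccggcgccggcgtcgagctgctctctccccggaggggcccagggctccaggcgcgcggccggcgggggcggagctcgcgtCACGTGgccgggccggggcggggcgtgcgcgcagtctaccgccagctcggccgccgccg
Me1, chr9:86695865-86696164, minus strand: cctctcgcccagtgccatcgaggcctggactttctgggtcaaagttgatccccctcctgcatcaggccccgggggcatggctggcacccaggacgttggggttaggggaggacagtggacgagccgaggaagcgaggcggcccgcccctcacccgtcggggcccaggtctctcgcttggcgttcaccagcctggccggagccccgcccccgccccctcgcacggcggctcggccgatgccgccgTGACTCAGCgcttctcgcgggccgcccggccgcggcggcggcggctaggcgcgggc

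The window of Hmgcs1, which encodes the enzyme that makes HMG-CoA, held the sterol element TCACCCCAC between 137 and 129 bases before the start, together with 4 CCAAT boxes that read ATTGG on the gene's strand. That of Gpam held 1 CCAAT box, that of Lpin2 an E-box and that of Me1 the letters TGACTCAGC across the start. RefSeq windows were found for 32 of the 37 genes, 45 windows in all. There was none for Fdft1, Dgat2, Dgat1, Fdps or Sqle, so the shares below leave out Dgat2 and Fdft1, which changed strongly. The sterol element was found in 1 of the 45 windows, against 1.24% of all 32851 promoter windows. A CCAAT box was found in at least 1 window of each of the 14 sterol enzyme genes with a window, which is 82.4% of their 17 windows, and in 36.4% of the 11 windows of triglyceride enzyme genes, against 37.4% of all windows. E-boxes were found in 15.6% of the members' windows, against 7.15% of all, and the antioxidant type element in 13.3%, against 12.4% of all. A match is a description of the letters, not a bound site.

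To compare the subsets, a limma model of the log2 intensities with a term for the pair was used, adjusting p-values over all 22180 genes. A gene was called at an adjusted p under 0.05, and a positive log2 fold change means a higher level in Lu-pos. In Lu-pos cells 8 of the 36 members were lower, 22.2%, and 1 was higher, 2.78%. Of all genes 7.19% were called lower and 4.35% higher. Among the 11028 genes above a background level of 3.73, set by olfactory and vomeronasal receptor genes, 13.7% were called lower and 8.22% higher, and 33 of the 36 members lay above that level. The 8 genes called lower were Dgat2, Lpin2, Gpam and Agpat2 of triglyceride synthesis, Fdft1 and Ebp of sterol synthesis, Insig2 and Acss2, and the gene called higher was Me1. The median log2 fold change of the 36 members was -0.07, against -0.02 over all genes and -0.05 over genes above background. Leaving out any 1 pair lowered the count of members called lower, to between 4 and 6, with 4 without pair 1 and 5 without pair 7. Of all genes, 1190 to 1367 were then called lower, against 1595 with all pairs. Without pair 1 or without pair 4, 2 members were called higher. In the plot of fold changes by role, Dgat2, Lpin2, Fdft1 and Me1 lay farthest from 0 in their own routes. Ebp (-0.57) and Insig2 (-0.46), which were called, lay beside Msmo1 (-0.58) and Scap (-0.44), which were not.

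**Figure D1:**
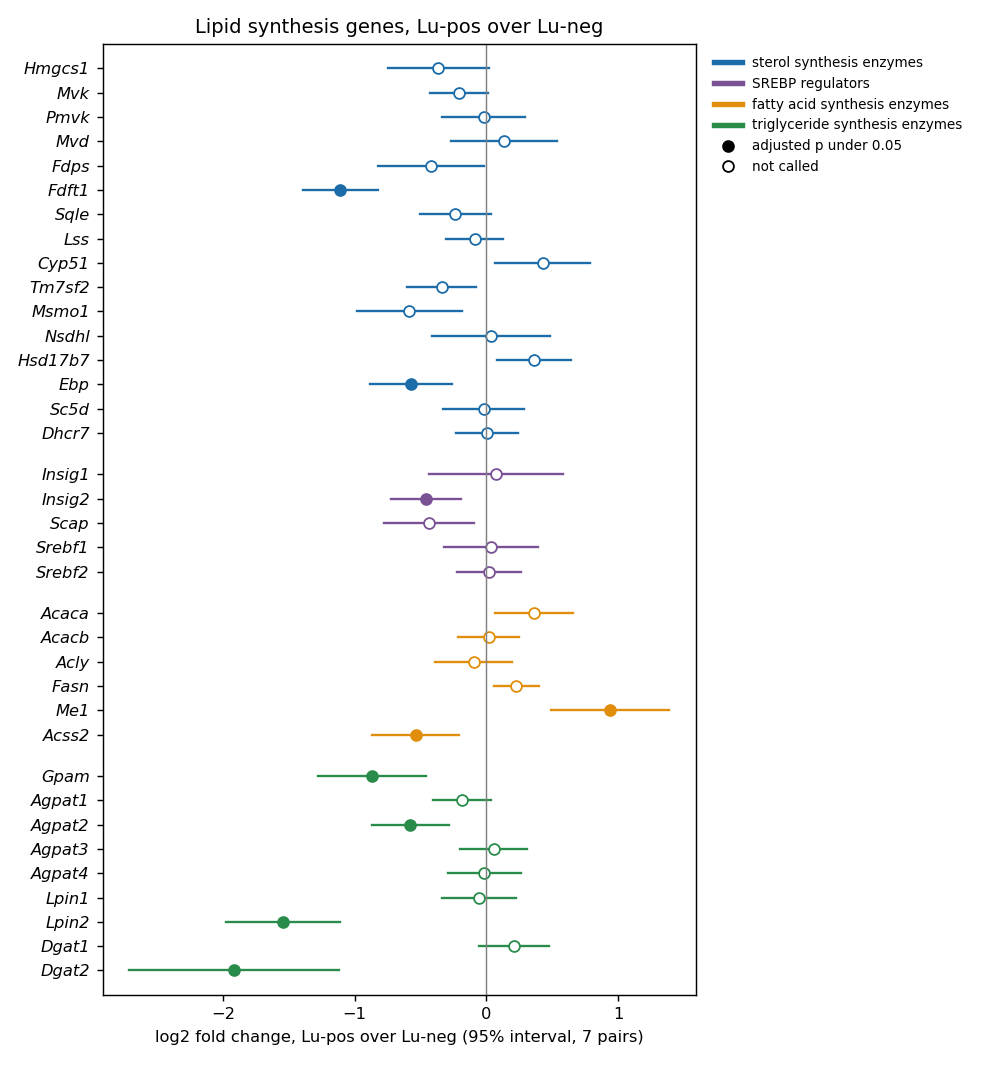
Log2 fold change (Lu-pos over Lu-neg) of the 36 measured members with the 95% interval of the paired fit, n = 7 pairs, grouped by role; filled points were called at an adjusted p under 0.05. Dgat2 at -1.91, Lpin2 at -1.55 and Fdft1 at -1.11 lie farthest below 0, and Me1 at 0.94 farthest above.

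Triglyceride synthesis held the largest share of called genes, 4 of 9, all lower in Lu-pos. That is 44.4%, against 13.7% called lower among all genes above background. Each kind of step had a gene among them. Dgat2, whose enzyme adds the last fatty acid, had the largest change of all members. Its log2 intensity ranged between 3.31 and 6.08 (median 5.32) in Lu-pos samples, against 6.53 and 7.63 (median 7.03) in Lu-neg samples, and the groups did not overlap. The mean was 5.09 ± 0.92 in Lu-pos and 7.004 ± 0.37 in Lu-neg (SD, n = 7 each), a log2 fold change of -1.91 (standard error, SE, 0.35; adjusted p = 0.00808), or 3.77-fold lower. Pair 3 stood out, with a difference of -4.32 and a Lu-pos value under the background level, while the other 6 pairs differed by between -2.35 and -0.95. Without pair 3 the log2 fold change was -1.51 (adjusted p = 0.0019). Dgat1, which encodes an unrelated enzyme for the same step, had a log2 fold change of 0.21 (95% interval -0.06 to 0.48, adjusted p = 0.347).

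Lpin2, of the lipin family that turns phosphatidic acid into diacylglycerol, was the second of the large falls. Its log2 intensity lay between 6.20 and 6.76 (median 6.58) in Lu-pos and between 7.53 and 8.98 (median 7.97) in Lu-neg, again without overlap. The log2 fold change was -1.55 (SE 0.19, adjusted p = 0.00145), 2.92-fold lower, and every pair differed by between -2.68 and -0.85. A second, dimmer probe set of Lpin2 gave a log2 fold change of -1.79 (SE over the pairs 0.65), lower in 5 of 7 pairs. Lpin1, whose protein does the same reaction and also acts in the nucleus, had a log2 fold change of -0.05 (95% interval -0.33 to 0.23).

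The early acylations moved less. Gpam, the mitochondrial enzyme of the first acylation, lay between 4.05 and 5.45 (median 4.87) in Lu-pos and between 5.27 and 6.06 (median 5.59) in Lu-neg. Its groups overlapped through 1 Lu-pos sample, that of pair 2, where the difference was 0.04, and the other 6 Lu-pos samples lay below every Lu-neg sample. The log2 fold change was -0.87 (SE 0.18, adjusted p = 0.0145), or 1.82-fold lower. Agpat2, whose loss in humans causes congenital lipodystrophy, lay between 4.73 and 5.25 (median 4.94) in Lu-pos and between 5.28 and 5.92 (median 5.52) in Lu-neg, without overlap by a narrow margin. Its log2 fold change was -0.58 (SE 0.13, adjusted p = 0.0194), with differences close to 0 in pairs 3 and 6 (-0.14 and -0.04). The call was lost without pair 1, 2 or 4, with an adjusted p of at most 0.0551. Agpat1, Agpat3 and Agpat4 had log2 fold changes between -0.18 and 0.06 and were not called.

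The members whose groups did not overlap were Dgat2, Lpin2 and Agpat2, with all Lu-pos samples below all Lu-neg samples, and Me1, with all above. Over all genes 1.67% did not overlap in the first way and 1.34% in the second. The changes of paralogs were set against each other within the pairs, for 4 pairs of genes chosen after their values were seen, by an exact two-sided permutation test of signs over the 7 pairs (smallest possible p = 0.0156). The change of Dgat2 was below that of Dgat1 in 7 of 7 pairs, by -2.12 (SE 0.53, exact p = 0.0156, adjusted over the 4 tests 0.0312). That of Lpin2 was below that of Lpin1 in 7 of 7 pairs, by -1.49 (SE 0.22, exact p = 0.0156, adjusted 0.0312). For Agpat2 against Agpat1 the difference was -0.39 (SE 0.14, exact p = 0.0469, adjusted 0.0625) and for Insig2 against Insig1 -0.53 (SE 0.35, exact p = 0.172, adjusted 0.172), and neither passed after adjustment. The first gene of each of the 4 pairs had already been called lower in these same samples and its paralog had not. The adjustment over the 4 tests does not cover that choice, so these p-values only describe the chosen genes.

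**Figure D2:**
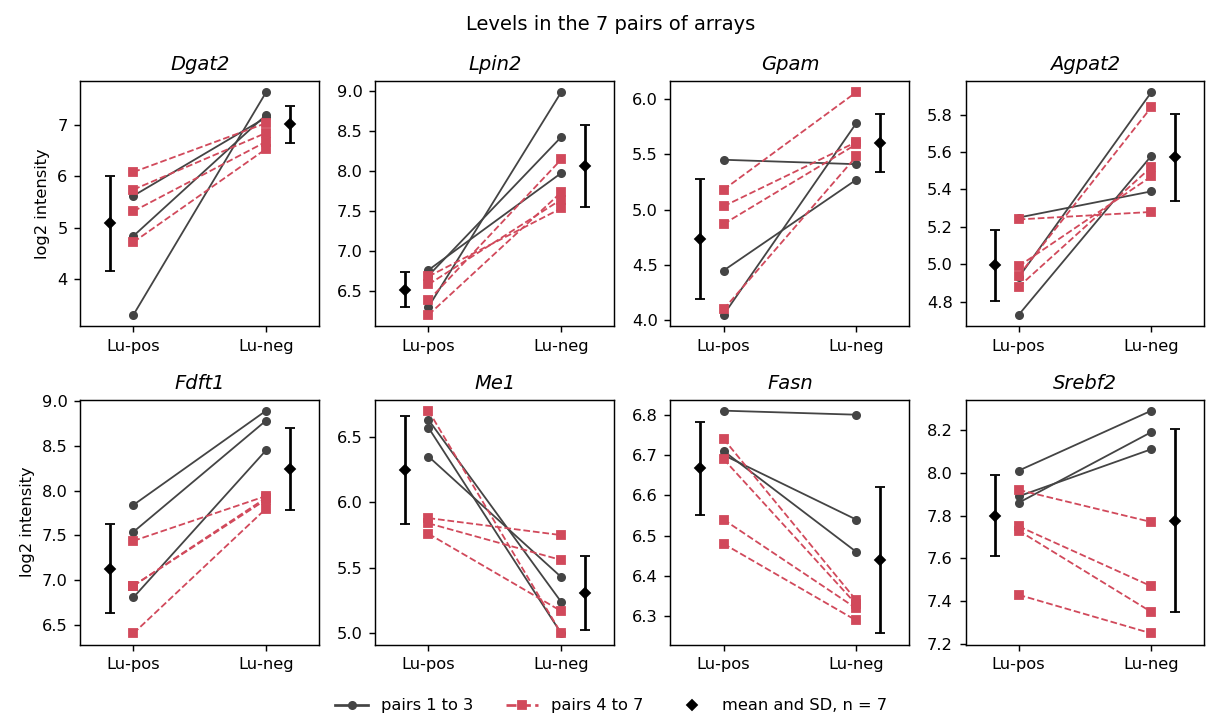
Log2 intensity of 8 members in every array (Lu-pos left, Lu-neg right, lines join a pair, each panel with its own scale that does not start at 0); diamonds give the mean and SD, n = 7. Dgat2, Lpin2, Agpat2 and Me1 show no overlap between the subsets, whereas the lines of Srebf2 rise toward Lu-neg in pairs 1 to 3 and fall in pairs 4 to 7.

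In sterol synthesis 2 of 16 measured enzyme genes were called, both lower in Lu-pos, and the median log2 fold change was -0.15. The share called lower, 12.5%, was near the 13.7% of all genes above background. Fdft1 encodes squalene synthase, the first enzyme committed to sterols. Its log2 intensity lay between 6.41 and 7.84 (median 6.94) in Lu-pos and between 7.80 and 8.89 (median 7.94) in Lu-neg, and 6 of 7 Lu-pos samples were below every Lu-neg sample. The log2 fold change was -1.11 (SE 0.13, adjusted p = 0.000969), 2.16-fold lower, with differences between -1.64 and -0.50 over the pairs. It was called with pairs 1 to 3 alone (-1.31) and with pairs 4 to 7 alone (-0.96). Ebp, the sterol isomerase of the late pathway, lay between 5.72 and 6.24 (median 5.95) in Lu-pos and between 6.09 and 6.96 (median 6.60) in Lu-neg. It was lower in 6 of 7 pairs, with a mean difference of -0.57 (SE 0.14, adjusted p = 0.0258). The call of Ebp was lost without pair 1, 2, 3, 6 or 7, with an adjusted p of at most 0.0708.

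The measured enzymes before Fdft1 did not pass the test, and of those after it only Ebp did. Those before it, from Hmgcs1 through the mevalonate enzymes Mvk, Pmvk and Mvd to Fdps, which makes farnesyl diphosphate, had log2 fold changes between -0.42 (Fdps) and 0.13 (Mvd). Hmgcs1, with the sterol element in its promoter, was lower in 6 of 7 pairs, with a difference of -1.51 in pair 3 and between -0.30 and 0.13 in the others, and its log2 fold change was -0.37 (95% interval -0.75 to 0.02, adjusted p = 0.239). Sqle, the squalene epoxidase that follows Fdft1, had -0.23 (95% interval -0.50 to 0.03) and Lss, the cyclase that forms lanosterol, -0.09 with a mean below the background level. Among the later enzymes Msmo1, a sterol methyl oxidase, had -0.58 (95% interval -0.98 to -0.19, adjusted p = 0.0653) and Tm7sf2, a sterol reductase, -0.34. Msmo1 was called lower when genes under the background level were left out (adjusted p = 0.0396) and without pair 2 (-0.75, adjusted p = 0.0122). Cyp51, the lanosterol demethylase, and Hsd17b7, a ketosteroid reductase, pointed the other way, at 0.43 and 0.36, each higher in 6 of 7 pairs with an adjusted p of 0.136 and 0.107, and Hsd17b7 was called without pair 4 (0.46, adjusted p = 0.036). Nsdhl, Sc5d and Dhcr7 lay between -0.02 and 0.03.

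Of the 5 SREBP regulators Insig2 was called lower in Lu-pos, and the other 4 were not called. This single gene is 20% of the list, against 13.7% called lower among all genes above background. Srebf2 ranged between 7.43 and 8.01 (median 7.86) in Lu-pos and between 7.25 and 8.29 (median 7.77) in Lu-neg, with a log2 fold change of 0.02 (95% interval -0.22 to 0.27, adjusted p = 0.941). It was lower in Lu-pos in each of pairs 1 to 3, by a mean of -0.28, and higher in each of pairs 4 to 7, by a mean of 0.25, a difference between the sets that was not tested. Srebf1 ranged between 5.04 and 6.23 (median 5.67) in Lu-pos and between 5.51 and 5.75 (median 5.63) in Lu-neg, with a log2 fold change of 0.04 (95% interval -0.32 to 0.40, adjusted p = 0.935). The Lu-pos samples thus lay on both sides of a narrow Lu-neg range, 3 below it and 3 above it. Insig2 lay between 5.10 and 5.76 (median 5.74) in Lu-pos and between 5.71 and 6.51 (median 5.78) in Lu-neg, so that the groups overlapped, but it was lower in Lu-pos within each of the 7 pairs. The mean difference was -0.46 (SE 0.12, adjusted p = 0.034). Its differences were close to 0 in pairs 4 and 6 (-0.03 and -0.04). In a fit that ignored the pairs its adjusted p was 0.0725, and the call was also lost without pair 1, 2, 3, 5 or 7, with an adjusted p of at most 0.0877. Insig1, itself a well-known SREBP target, had a log2 fold change of 0.07 with differences between -1.13 and 1.23, and was not called. Scap had -0.44 (95% interval -0.78 to -0.09, adjusted p = 0.111), close in size to Insig2, with 6 of 7 pairs below 0. A second probe set of Scap, with means below the background level, gave -0.10, lower in 4 of 7 pairs.

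In fatty acid synthesis 1 of 6 genes was called higher in Lu-pos and 1 lower, 16.7% each. Among all genes above background 8.22% were called higher and 13.7% lower. Me1 encodes the cytosolic malic enzyme, which supplies NADPH. Its log2 intensity lay between 5.76 and 6.70 (median 6.35) in Lu-pos and between 5.00 and 5.75 (median 5.24) in Lu-neg, so that the highest Lu-neg and the lowest Lu-pos sample almost touched. The log2 fold change was 0.94 (SE 0.20, adjusted p = 0.0153), 1.92-fold higher, in 7 of 7 pairs, with differences between 0.13 in pair 6 and 1.70 in pair 5. Acss2, which activates acetate, lay between 3.12 and 3.98 (median 3.78) in Lu-pos and between 3.93 and 4.56 (median 4.13) in Lu-neg. Its difference of -0.54 (SE 0.15, adjusted p = 0.0455) passed, although pairs 2 and 3 differed by 0.04 and -0.08 and its mean in Lu-pos, 3.64, was below the background level. Its call was lost without pair 1, 4, 5, 6 or 7, with an adjusted p of at most 0.112.

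The enzymes that build the chain itself were not called. Fasn, the fatty acid synthase, lay between 6.48 and 6.81 (median 6.70) in Lu-pos and between 6.29 and 6.8 (median 6.34) in Lu-neg. It had a difference of 0.23 (SE 0.08, 95% interval 0.06 to 0.40, adjusted p = 0.0909) and was above 0 in 7 of 7 pairs. Acaca, the acetyl-CoA carboxylase that supplies malonyl-CoA, lay between 4.45 and 5.05 (median 4.57) in Lu-pos and between 3.89 and 4.86 (median 4.31) in Lu-neg. Its log2 fold change was 0.36 (95% interval 0.07 to 0.66, adjusted p = 0.122), with 6 of 7 pairs above 0, and it was called without pair 1 (0.47, adjusted p = 0.0374). Acly, which makes cytosolic acetyl-CoA from citrate, had -0.09 (95% interval -0.39 to 0.20) and Acacb, the carboxylase isoform of the mitochondrial membrane, lay below the background level. Which small differences were called depended on scaling. When each array was aligned on the average of 6 housekeeping genes, all log2 fold changes moved up by 0.10, and the median of the members became 0.03. Fasn (0.33, adjusted p = 0.0222), Acaca (0.47, adjusted p = 0.0359) and Hsd17b7 (0.46, adjusted p = 0.04) were then called higher. Ebp, Insig2 and Acss2 were no longer called. Under that scaling 59.4% of all called genes were higher, against 37.7% without it. Hprt, 1 of the 6, was itself called lower; without it the shift was 0.004 and the members called were 8 lower and 1 higher.

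**Figure D3:**
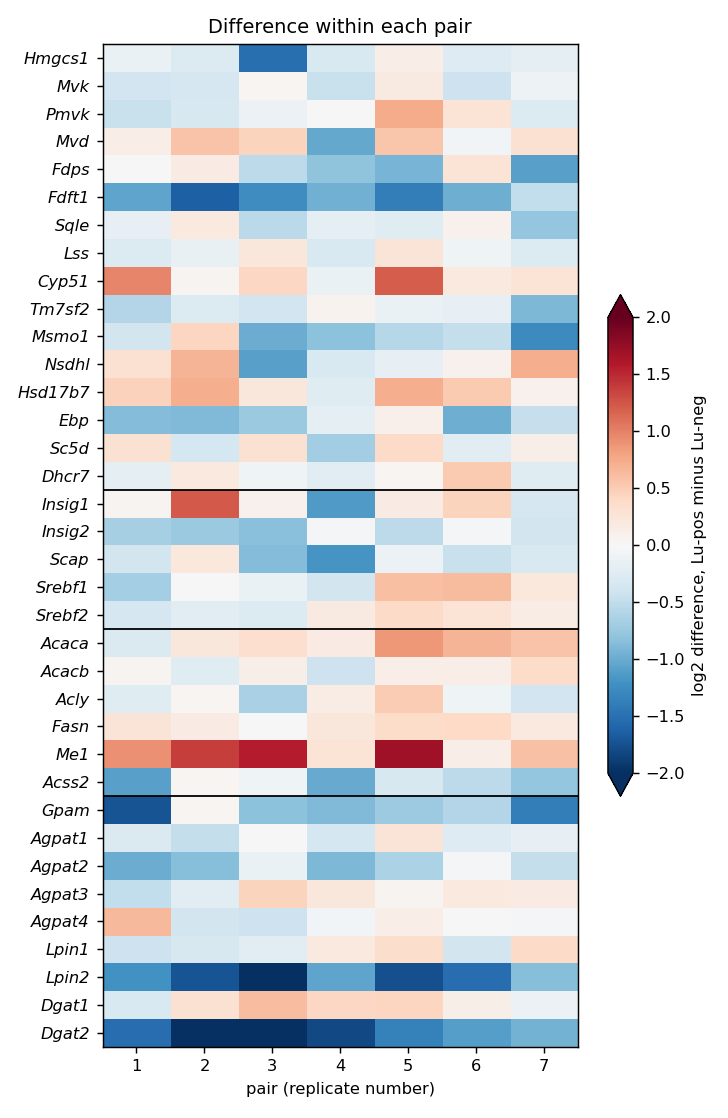
Log2 difference (Lu-pos minus Lu-neg) within each of the 7 pairs for the 36 members, in order of the pathways, with lines between the 4 roles; colors saturate at 2 in either direction. Fdft1, Lpin2 and Dgat2 were lower in all 7 pairs, with Dgat2 at -4.32 in pair 3, and Me1 was higher in all 7.

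The pools fell into sets that no label explains: the second principal component of genes above background, with 14.7% of the variance, separated pairs 1 to 3 from pairs 4 to 7, and the first, with 35.7%, separated Lu-pos from Lu-neg. The median log2 fold change of the members was -0.24 over pairs 1 to 3 and -0.10 over pairs 4 to 7. The falls of Dgat2 (-2.73 and -1.30), Lpin2 (-1.87 and -1.30), Fdft1 (-1.31 and -0.96), Ebp (-0.83 and -0.38), Insig2 (-0.75 and -0.24) and Agpat2 (-0.66 and -0.52) were larger in pairs 1 to 3, whereas those of Gpam (-0.84 and -0.89) and Acss2 (-0.37 and -0.66) were larger in pairs 4 to 7. These differences between the sets were not tested. The markers of hormone-sensing cells Esr1, Pgr and Foxa1 had a median log2 fold change of -1.90 over pairs 1 to 3 and -1.01 over pairs 4 to 7. The mean level of these 3 markers lay between 5.76 and 7.59 in Lu-pos samples and between 8.09 and 8.40 in Lu-neg samples. Their part in the members' changes was not tested. In cells sorted in bulk, fewer cells of a type and less RNA per cell cannot be told apart.

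Markers of the sorted and of other cell types were examined for the same arrays. All 5 luminal markers lay above background, and of these Krt19 was called lower in Lu-pos (log2 fold change -0.49). The 3 progenitor markers Kit, Elf5 and Aldh1a3 were higher in Lu-pos. Adipocytes, which are rich in triglyceride enzymes, were followed by 7 markers: none was called, 2 lay above background, and the mean level of the list was between 3.50 and 4.15 in Lu-pos samples and between 3.60 and 4.21 in Lu-neg samples. Adiponectin (Adipoq) was at 2.87 ± 0.19 in Lu-pos and 2.84 ± 0.09 in Lu-neg (SD, n = 7 each), below the background level. Fabp4, also a gene of endothelial cells, was at 8.36 ± 1.20 in Lu-pos and 8.47 ± 1.57 in Lu-neg, with a difference of 1.33 over pairs 1 to 3 and -1.20 over pairs 4 to 7. None of 7 basal and none of 5 immune markers was called, while 2 of each list were higher in Lu-pos at an unadjusted p under 0.05. Basal list means lay between 4.88 and 6.21 in Lu-pos and between 3.85 and 6.62 in Lu-neg. Immune list means lay between 3.64 and 4.01 in Lu-pos and between 3.02 and 3.86 in Lu-neg. The basal markers were uneven over the pairs: Krt14 differed by between -3.49 (pair 7) and 3.11 (pair 6). In the Lu-neg samples of pairs 2 and 7 Krt14 was at 8.04 and 8.78, against a Lu-neg median of 4.95. Acta2 was at 9.17 and 8.77 in these 2 samples, against a Lu-neg median of 6.45. Of 5 fibroblast markers only Dcn was called, lower in Lu-pos, while the other 4 had log2 fold changes above 0. Fibroblast list means lay between 4.55 and 6.13 in Lu-pos and between 4.29 and 5.42 in Lu-neg. Of 5 endothelial markers only Vwf was called, also lower, and over that list 4 log2 fold changes were below 0 and 1 above. Endothelial list means lay between 3.55 and 6.58 in Lu-pos and between 4.38 and 6.61 in Lu-neg. Endothelial Cdh5 differed by between -3.57 (pair 6) and 3.18 (pair 1). Of 4 milk protein genes, 3 were higher in Lu-pos and none was lower. The part of these cell types in the members' changes was not tested.

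Other lipid genes, listed by function outside the members, gave 9 calls among 30 measured. Acat2, Nr1h2, Acsl1 and Acsl3 of further synthesis and regulation, and Soat1 and Soat2 of cholesterol storage, were listed but not analysed here. In the list of further synthesis and regulation 3 of 21 were lower in Lu-pos, 14.3%, and 2 higher, 9.52%, shares near the 13.7% and 8.22% of all genes above background. Acsl5, a ligase that activates long-chain fatty acids, lay between 5.79 and 6.46 (median 6.17) in Lu-pos and between 6.88 and 7.56 (median 7.06) in Lu-neg, without overlap, a log2 fold change of -1.02 (SE 0.09, adjusted p = 0.000404). Acsl4, a ligase that prefers arachidonic acid, fell by 0.82 on the log2 scale (SE 0.18, adjusted p = 0.016) and Agpat5, of the second acylation family, by 0.72 (SE 0.10, adjusted p = 0.00219), both in 7 of 7 pairs. Gpat3 and Gpat4, first acylation enzymes of the endoplasmic reticulum, had -0.41 and -0.24 and were not called. A second probe set of Gpat3, with means below the background level, gave 0.04.

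The rises of that list were those of Prkaa2, a catalytic subunit of the AMP-activated kinase that inhibits acetyl-CoA carboxylase, and of Lbr, the lamin B receptor, which is also a sterol reductase. Prkaa2 lay between 4.34 and 6.17 (median 5.06) in Lu-pos and between 3.41 and 4.89 (median 3.89) in Lu-neg, a log2 fold change of 1.28 (SE 0.20, adjusted p = 0.004). The other catalytic subunit gene, Prkaa1, had -0.25 (95% interval -0.74 to 0.23). Lbr differed by 0.60 on the log2 scale (SE 0.09, adjusted p = 0.00371), without overlap between the subsets. It shares its reaction with Tm7sf2, whose own log2 fold change of -0.34 did not pass.

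In cholesterol transport, storage and export 2 of 9 genes were higher and 2 lower in Lu-pos, 22.2% each. Among all genes above background 8.22% were called higher and 13.7% lower, and with 9 genes each share rests on 2 calls. Lipa, the lysosomal acid lipase that frees cholesterol and fatty acids from their esters, lay between 6.49 and 7.73 (median 7.0) in Lu-pos and between 5.07 and 6.38 (median 5.47) in Lu-neg, without overlap. Its log2 fold change was 1.43 (SE 0.23, adjusted p = 0.00446). Npc1, which exports cholesterol from lysosomes, was higher by 0.73 (SE 0.16, adjusted p = 0.0195) in 7 of 7 pairs. Ignoring the pairs gave an adjusted p of 0.118, and the call was also lost without pair 1, 6 or 7, with an adjusted p of at most 0.0565. A second probe set of Npc1 gave 0.76, but its means, 3.60 in Lu-pos and 2.84 in Lu-neg, lay below the background level. Npc2, its partner inside the lysosome, had -0.39 (adjusted p = 0.062). Abcg1, a sterol exporter, had a difference of -0.81 (SE 0.19, adjusted p = 0.0215), was lower in 7 of 7 pairs, and was not called without pair 2 or 4, with an adjusted p of at most 0.0592. Stard3, a sterol transfer protein of late endosomes, was lower by -0.72 (SE 0.16, adjusted p = 0.0168) in 6 of 7 pairs.

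**Figure D4:**
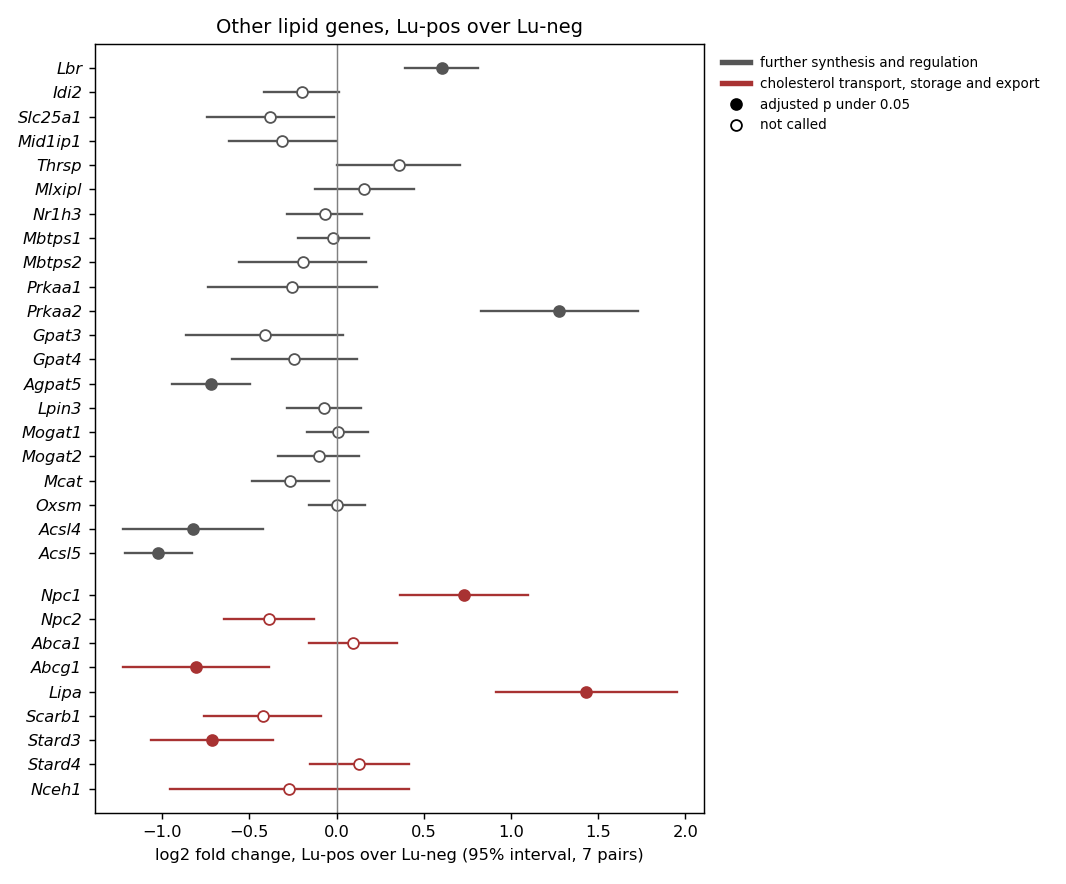
Log2 fold change (Lu-pos over Lu-neg) of 30 other lipid genes with the 95% interval of the paired fit, n = 7 pairs; filled points were called at an adjusted p under 0.05. Acsl5 at -1.02 lies lowest, and Lipa at 1.43 and Prkaa2 at 1.28 highest.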

How the data were processed

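Gene expression was measured in 7 Lu-pos and 7 Lu-neg samples of sorted mouse luminal cells, mapped to group and pair from the sample titles. The authors amplified and hybridized the RNA, and the deposited values are log2 intensities of probe sets. RMA and Affymetrix Expression Console are named in the submitters' processing notes. The quantile normalization in EASANA that the study's methods describe was not repeated. Arrays have no read depth, and their number limits the precision; amplification and RMA can compress differences.

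Of 41345 probe sets, 23521 had 1 gene symbol, 1820 several and 16004 none in the annotation used, and probe sets without a single symbol were not analysed here; 23328 matched RefSeq (GRCm38.p6) and 0 symbols needed updating. The brightest probe set stood for each of the 1082 genes with several. Background was set at the 95th percentile of mean level among 1390 receptor genes. Array medians lay between 3.46 and 3.58, and no arrays were identical.

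The subsets were compared in R 4.3.3 with limma 3.58.1 (lmFit, eBayes), using the pair as a block and Benjamini-Hochberg adjustment over all genes, checked on simulated data. The series describes the samples as paired. Deviations from the group means correlated within the 7 pairs at 0.166 to 0.256; arrays of different pairs correlated at 0.0624 on average within pairs 1 to 3, at 0.0387 within pairs 4 to 7 and at -0.208 across these sets. The best correlation with an array of another pair was higher in pairs 1, 6 and 7.

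The members, lists and tests were chosen with earlier results of these data known. Values by sample were given for members called with at least 1.5-fold change and for Srebf1, Srebf2, Fasn and Acaca; those of Agpat2, Ebp, Insig2 and Acss2, and the other members and paralog tests singled out, were chosen after values were seen. Of the other lipid lists, up to 3 called genes per direction were named. Alternatives were no pairing, the methods' t-test, other variance settings, array weights, a background filter, mean of probe sets, other scalings, each pair left out and each set of pairs alone.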

Additional observations from a re-analysis of the deposited data

Results flagged for a closer look

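Of 132 groups examined, the 36 members and 30 other lipid genes in either subset, 6 held a sample whose gap to the nearest other sample exceeded the critical share of the group's range in Dixon's test. Chance alone flags about 1 group in 20. Sqle and Nsdhl, sterol enzymes, were high in the same Lu-neg sample, that of pair 3: Sqle at 8.01, against 6.87 to 7.27 in the other Lu-neg samples, and Nsdhl at 5.95, against 5.12 to 5.46. Mvd, of the mevalonate steps, was low in the Lu-pos sample of pair 4, at 4.08, against 4.65 to 4.99 in the others. Agpat4 was high in the Lu-pos sample of pair 1, at 4.21, against 2.88 to 3.39. Mbtps2, a protease that cleaves SREBPs, was high in the Lu-pos sample of pair 7, at 5.80, against 4.96 to 5.32. Stard4, a sterol transfer protein, was high in the Lu-pos sample of pair 6, at 4.15, against 3.19 to 3.51. None of these 6 genes was called between the subsets.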

How the results depend on the processing

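Fdft1, Lpin2 and Acsl5 were called under all 19 alternatives. Dgat2 was lost only under the methods' t-test after adjustment (adjusted p = 0.0644), and Me1 and Gpam only under that test and, for Me1, in pairs 4 to 7 alone and, for Gpam, in pairs 1 to 3 alone. No called gene changed sign. Without the replicate block 8 members were called, 7 lower and 1 higher, and Insig2 was lost. Leaving out each pair in turn gave 1910 to 2207 genes called, 1190 to 1367 lower and 718 to 897 higher, 6 to 8 members called, 4 to 6 lower and 1 to 2 higher, 8 to 10 other lipid genes and a median of the members between -0.15 and -0.05. The fewest members were called without pair 1 or pair 7, 6 each. The methods' paired t-test, unadjusted and with a 1.5-fold minimum, gave 1037 genes lower and 5 members, 4 of them lower; after adjustment it gave 1196 genes, 737 lower and 459 higher, 2 members, both lower and 0 higher (Fdft1 and Lpin2), and 5 other lipid genes. The housekeeping scaling gave 1047 genes lower and 1530 higher, and 5 members lower and 4 higher. Pairs 1 to 3 alone gave 948 genes, 489 lower and 459 higher, 5 members, 4 of them lower, 4 other lipid genes and a median of -0.24. Pairs 4 to 7 alone gave 811 genes, 515 lower and 296 higher, 4 members, all lower and 0 higher, and 1 other lipid gene; these fits had fewer samples. The housekeeping scaling without Hprt was chosen after the data were seen. Arrays have no depth, and for Acss2, Lss, Acacb and Agpat4 the signal near background limits what could be seen.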
